A study of Mus musculus with 42 samples.

Results

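The cytosolic ribosome of the mouse is built from ribosomal RNA and a fixed set of proteins, each encoded by its own gene. The genes of these proteins were taken as all protein-coding genes of the annotation whose symbols have a fixed form. The form is Rpl or Rps and a number, alone or with a final a, x or l, or else Rplp0, Rplp1 or Rplp2. This rule gave 79 of the 44674 genes in the count table. Of the 79, 49 encode proteins of the large subunit (Rpl) and 30 encode proteins of the small subunit (Rps). After the filter on low counts 76 of them could be tested, among 21168 genes in all. The 3 that failed it, Rpl3l, Rpl10l and Rpl39l, are copies of Rpl3, Rpl10 and Rpl39 known from muscle or testis.

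Adult C57BL/6NCrl males, 8 to 12 weeks old, were given a food odour or no odour for 1 h, and libraries were made from their main olfactory epithelium. Each sample was a pool of 4 epithelia, so the replicates are pools and not single animals. From each of 21 pools an antibody to phosphorylated ribosomal protein S6 pulled down ribosomes with their bound RNA, and a second library was made from the same lysate before the pulldown (input). The study asked which odorant receptors the odours of these foods activate, and ribosomal protein mRNAs were measured alongside.

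The groups were no odour (5 pools), the odour of normal chow diet (NCD, 6 pools), the odour of a bacon-flavoured chow of the same nutrient content (BFD, 5 pools) and the odour of a lard-based high-fat diet (HFDlard, 5 pools). No other treatment of the mice is stated, and the dissection buffer of every sample held cycloheximide, which stalls ribosomes on their mRNAs. The pulldown takes in any cell with phosphorylated S6, so it is enriched for such cells and not for 1 cell type. The 42 libraries held 24839555 to 36781553 counts each. Markers of mature olfactory sensory neurons (9 of 9), immature neurons (7 of 7) and supporting cells (6 of 6) were all detected, as the labelled tissue requires.

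Ribosomal protein S6, the product of Rps6, lies on the small subunit and is phosphorylated by kinases that act downstream of neuronal activity and of growth signals. In the pulldown its phosphorylated form is the handle by which a ribosome is caught. The mRNAs of most ribosomal proteins begin with a C followed by an unbroken run of pyrimidines (C or T in the gene). This element, the 5′ terminal oligopyrimidine or TOP, lets the cell raise or lower their translation together, and such mRNAs can move between a stored pool and polysomes.

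The starts of several of these genes are shown because that element is described for mRNAs of the family. Each line gives 10 bases before and 20 bases after an annotated transcription start, in the sense of the gene, from RefSeq sequence of the build GRCm38.p6, and the capitals mark the pyrimidine tract. The first 6 genes carried the tract exactly at the annotated start. Rps2, one of the genes with a lower level in the pulldown, carried it 4 bases downstream, and in Rpl41 and Rpl4 no such tract lay within 10 bases.
Rps6 (chr4:86857348-86857377, minus strand): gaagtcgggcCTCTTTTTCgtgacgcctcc
Rps27 (chr3:90213629-90213658, minus strand): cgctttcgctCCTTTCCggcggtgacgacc
Rps21 (chr2:180257369-180257398, plus strand): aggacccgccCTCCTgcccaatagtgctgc
Rplp2 (chr7:141447641-141447670, plus strand): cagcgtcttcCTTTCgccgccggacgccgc
Rpl38 (chr11:114668570-114668599, plus strand): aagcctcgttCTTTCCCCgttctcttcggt
Rpl15 (chr14:18270967-18270996, minus strand): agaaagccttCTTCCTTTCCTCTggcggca
Rps2 (chr17:24720053-24720082, plus strand): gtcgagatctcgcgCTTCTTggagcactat
Rpl41 (chr10:128549149-128549178, minus strand): gggccggctcggaagtgacgacaccgagca
Rpl4 (chr9:64173377-64173406, plus strand): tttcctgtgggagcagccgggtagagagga

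A tract of a C and at least 4 further pyrimidines, read on the sense strand, stood at the annotated start in 13 of 71 promoters of ribosomal protein genes (18.3%, from 59 genes that matched the RefSeq table). The share was 2.19% of 19831 promoters of other protein-coding genes and 0 of 75 promoters of mitochondrial ribosomal protein genes. Within 10 bases of the start it was found in 56.3% of the ribosomal protein promoters, 31.1% of the other promoters and 41.3% of the mitochondrial ones. A match describes these letters at an annotated start and not a measured start of transcription.

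Levels were counts divided by the scaled library size, on the usual scale of CPM, and levels of different genes were compared only per kilobase of transcript. In the input without odour the members had a median level of 317 CPM per kb, against 6.09 CPM per kb over all 16798 protein-coding genes tested. 61 of the members were among the 500 highest protein-coding genes. The highest was Rpl41, which codes for the smallest ribosomal protein, at 2218 CPM per kb, and Rps27 (1299 CPM per kb), Rps29 (968) and Rps25 (679) were also among the highest. Rpl41 alone held 8.96% of the counts on the family, and the first 14 genes by counts held 38.9%.

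The lowest tested members in the input were Rpl12 (4.36 CPM per kb), Rps12 (4.53), Rpl27 (24.5), Rps20 (38.6) and Rpl27a (43.1). The place of Rps20 rests on an annotated transcript length of 3706 bases. Its counts in the inputs without odour, 3465 to 4652, were near those of Rps27a (3452 to 4522), with a length of 714 bases. The annotated lengths of Rpl12 (1242 bases) and Rpl27a (1158 bases) were also above those of most members. For Rps12 and Rpl27 most counts stood on rows named as copies of the same gene (symbol with the ending ps and a number). These rows held 98.1% of the counts on Rps12 and its named copies and 87.8% for Rpl27, but 2.38% for Rpl12 and 0.034% for Rpl27a, and Rps20 had no such row. Among members with higher levels the share was 94.8% for Rpl10 and 68.0% for Rps23. The levels of Rps12, Rpl27, Rpl10 and Rps23 are therefore uncertain, since how reads shared with such rows were divided cannot be told from the table. Copies under other names were not counted here. Of the 31-base words of the Rpl12 transcripts 52.0% also occurred in 20 other genes, so its low level is uncertain too. In Rpl35 99.0%, in Rpl36 94.1% and in Rpl23a 89.8% of all 31-base words of the transcripts also occurred in other genes, while the share was 2.05% in Rpl39l and 0 in Rpl3l.

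Where the family has paired copies, the widely expressed copy prevailed in this tissue. In the input without odour Rpl3 stood at 446 CPM per kb and Rpl3l at 0.0782 CPM per kb. Rpl39 stood at 174 CPM per kb and Rpl39l at 0.183, and Rpl10 at 44.7 CPM per kb while no read was counted for Rpl10l. Rps27 stood at 1299 CPM per kb and its copy Rps27l, a gene known to respond to p53, at 84.5. Rps4x, the X-linked small-subunit gene, was at 387 CPM per kb, and Rpl22, a large-subunit gene with a companion outside the naming rule (Rpl22l1), at 63.5 CPM per kb. The named copy Rps4l is annotated as a pseudogene and was no member.

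Spread between pools differed by group. The median coefficient of variation over members in the input was 15.9% without odour, 7.52% under NCD, 10.4% under BFD and 20.1% under HFDlard odour. In the pulldown it was 6.57%, 8.65%, 16.3% and 5.07% in the same order. Over all genes the medians were 16.9%, 10.2%, 9.83% and 13.3% in the input. In the pulldown they were 13.2%, 11.7%, 16.9% and 9.98%. Rpl4, a large-subunit protein of the exit tunnel, varied least in the input without odour, by 1.44%.

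Summed over the 79 genes, ribosomal protein mRNAs took a larger share of the pulldown than of the input in each group. Without odour the share was 1.98% ± 0.0599 of all counts in the pulldown and 1.56% ± 0.139 in the input (mean ± SD, n = 5). Under NCD odour it was 2.02% ± 0.126 and 1.38% ± 0.0529 (n = 6), under BFD odour 1.91% ± 0.253 and 1.26% ± 0.0906 (n = 5), and under HFDlard odour 2.03% ± 0.112 and 1.45% ± 0.180 (n = 5). On this scale the group means of the pulldown lay close together, while those of the input were lower in the odour groups than without odour.

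A part of every library was ribosomal RNA, and that part differed between groups. In the input it took 24.7% ± 3.62 of counts without odour (19.2% to 28.1%) and 9.38% to 18.9% in the 16 odour libraries. In the pulldown it took 11.6% to 23.1% without odour and 8.12% to 17.5% under an odour. The input groups with and without odour therefore did not overlap in ribosomal RNA, and odour and ribosomal RNA content cannot be told apart between these groups. The labels give no batch or date that could be set beside it.

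With ribosomal RNA left out of the total, the members' share in the input was 2.08% ± 0.258 without odour, 1.61% ± 0.0864 under NCD, 1.42% ± 0.109 under BFD and 1.70% ± 0.274 under HFDlard odour. In the pulldown it was 2.45% ± 0.115, 2.29% ± 0.158, 2.16% ± 0.274 and 2.27% ± 0.0866 in the same order, so on this scale the pulldown means were also lower in the odour groups. The pool-by-pool ratio of this share, pulldown over input, was 1.19 ± 0.116 without odour (0.990 in pool 4), 1.42 ± 0.0547 under NCD, 1.53 ± 0.217 under BFD and 1.36 ± 0.219 under HFDlard odour. Within the 5 inputs without odour the libraries ranked the same by ribosomal RNA (19.2%, 23.8%, 24.7%, 27.9%, 28.1%) and by members' share (1.81%, 1.97%, 2.03%, 2.06%, 2.50%). Within the 5 HFDlard inputs the orders were also the same, from 9.38% and 1.31% up to 18.9% and 2.07%, whereas in NCD and BFD inputs they were not.

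**Figure D1:**
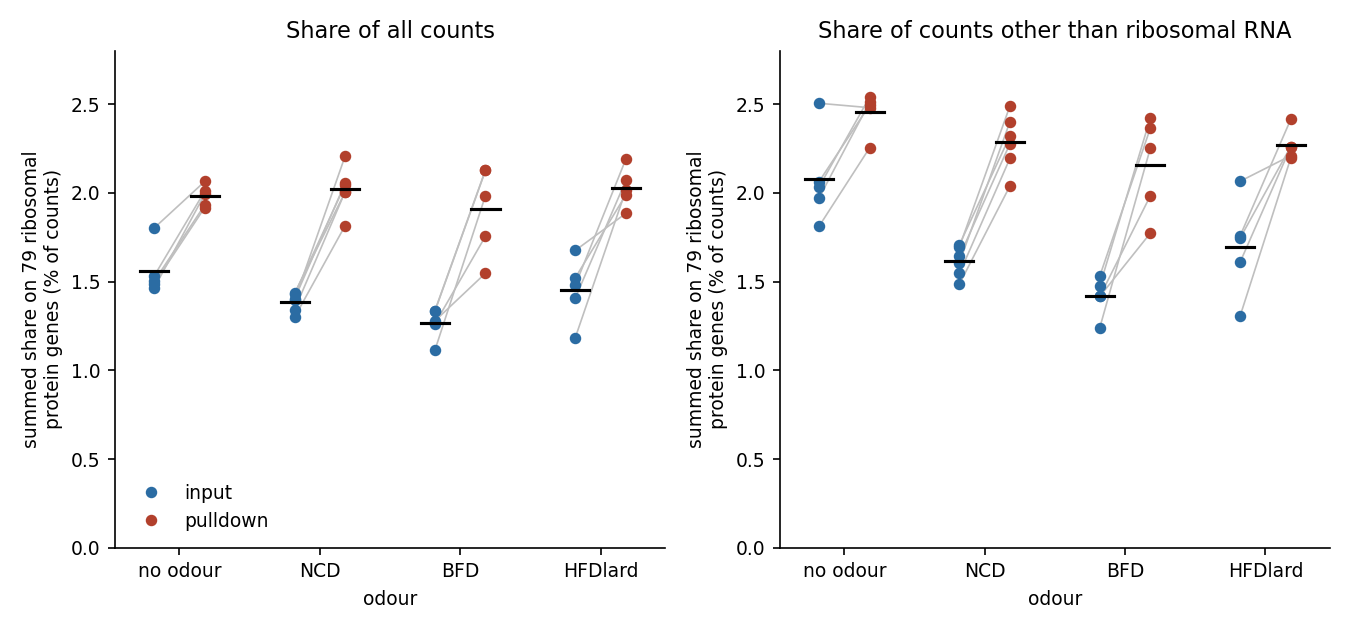
Summed share of counts on the 79 ribosomal protein genes in each library, in percent of all counts (left) and of counts other than ribosomal RNA (right), by odour. Points are libraries, grey lines join the input (blue) and pulldown (red) of a pool, black bars are group means, and the input means without odour (1.56% and 2.08%) stand above those of the odour groups.

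The first comparison asked which mRNAs the pulldown held more of than the input without odour. Ribosomal protein mRNAs were on the whole slightly more abundant in the pulldown, and the smallest members led. The log2 ratio of pulldown to input had a median of 0.20 over the 76 members, from −0.67 to 1.10, against 0.012 over all genes. It was positive for 63 of 76. Of the 76, 10 were higher and 2 lower in the pulldown at an adjusted p under 0.001 (edgeR's quasi-likelihood test, Benjamini-Hochberg over all genes), beside 19.8% of all genes higher, 16% lower and 35.8% in either direction. The members called, 13.2% higher and 2.63% lower, were below these shares. At an adjusted p under 0.05 38 were higher and 2 lower, beside 31% and 28.5% of all genes.

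Rpl41 had the largest ratio. Its pulldown level without odour was 2652, 2540, 2781, 2454 and 1915 CPM, and its input level 1060, 1200, 1108, 1614 and 856 CPM. All 5 pulldowns stood above all 5 inputs, by 2.14-fold in the fit (log2 1.10 ± 0.14 SE, edgeR adjusted p = 6.42e-07). Rps29, a small zinc-binding protein of the small subunit, was at 651, 662, 688, 639 and 520 CPM in the pulldown and at 335, 370, 356, 542 and 284 CPM in the input. Here pulldown pool 6, at 520 CPM, fell below input pool 4, at 542 CPM, but each pulldown exceeded its own input, with a log2 ratio of 0.77 ± 0.14 (edgeR adjusted p = 7.55e-05).

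Rps3, which sits at the mRNA entry of the small subunit and also acts in DNA repair, was the member with the smallest p. Its pulldown level was 349, 348, 369, 361 and 301 CPM, and its input level 238, 241, 233, 248 and 231 CPM. The groups did not overlap, and the log2 ratio was 0.54 ± 0.07 (edgeR adjusted p = 3.91e-07). Other members higher in the pulldown included Rps28 (0.71 ± 0.16), Rps27l (0.70 ± 0.13), Rpl38 (0.60), Rps26 (0.55 ± 0.09), Rpl13 (0.53 ± 0.09) and Rps19 (0.38), with edgeR adjusted p from 1.24e-05 for Rpl13 to 0.000726 for Rps19. Rps19 is a gene of the small subunit that is mutated in Diamond-Blackfan anaemia, and Rpl38 is a large-subunit gene needed for the patterning of the mouse skeleton.

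The 2 members lower in the pulldown were Rps2 and Rplp0. Rps2, a core protein of the small subunit, was at 164, 168, 166, 147 and 138 CPM in the pulldown and at 215, 240, 219, 289 and 180 CPM in the input (log2 ratio −0.53 ± 0.10, edgeR adjusted p = 0.000124). Every pulldown value of Rps2 lay below every input value. Rplp0, the base of the acidic stalk that recruits elongation factors, was at 163, 170, 171, 161 and 148 CPM in the pulldown and at 188, 203, 202, 248 and 172 CPM in the input (−0.31 ± 0.07, edgeR adjusted p = 0.000342). Here too all 5 pulldowns were the lower.

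The 2 proteins that bind Rplp0 as dimers did not pass the threshold. Rplp1 had a log2 ratio of 0.06 ± 0.20 (edgeR adjusted p = 0.812) and Rplp2 one of 0.42 ± 0.16 (edgeR adjusted p = 0.0278). Rps12 had the most negative ratio, −0.67, with a standard error of 1.19, at input levels of 2.81, 0.375, 2.46, 1.68 and 3.82 CPM, so this value cannot be read as a difference. In 23 of the 76 members all 5 pools were higher in the pulldown, near the share of 28.2% of all genes. In 2 all 5 were lower, against 26.4%. In a further 40 members 4 of the 5 pools were higher, a count without a share of all genes, so it does not single out the members. The exception was mostly the same pool, no-odour pool 4.

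By subunit, 3 large-subunit members were higher and 1 lower (median 0.21), and 7 small-subunit members were higher and 1 lower (median 0.18). The count of higher members was 6 without no-odour pool 1 or pool 6 and 15 without pool 4. The count of lower members was 0 without pool 4. With each library's own ribosomal RNA percentage as a single term 5 were higher and none was lower. The counts of these refits have no share of all genes beside them.

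**Figure D2:**
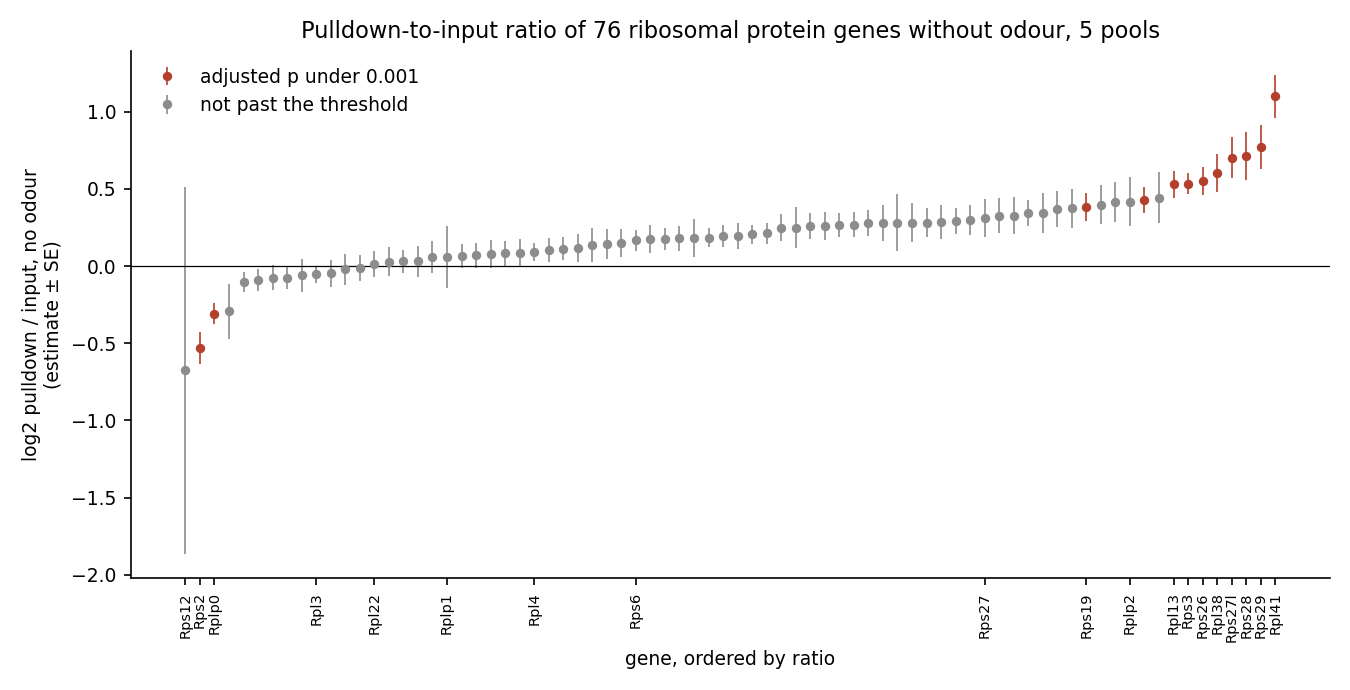
Log2 ratio of pulldown to input without odour for the 76 tested ribosomal protein genes, ordered by ratio, as the fitted estimate ± SE over 5 pools. Red points passed an adjusted p of 0.001. The ratios run from −0.67 (Rps12, with a wide error) to 1.10 (Rpl41), and most lie above 0. Names are given for some of the genes in the text.

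Rps6 codes for the protein the antibody recognises, and its own mRNA (ENSMUSG00000028495, chromosome 4, 86854660 to 86857412, build GRCm38) was checked in every group. Without odour it was at 250, 234, 252, 251 and 243 CPM in the pulldown and at 214, 199, 230, 267 and 192 CPM in the input. The groups overlapped through input pool 4, and the log2 ratio of 0.17 ± 0.07 did not pass the threshold (edgeR adjusted p = 0.0375).

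Under NCD odour the pulldown of Rps6 ran from 227 over a median of 238 to 261 CPM and the input from 191 over 199 to 204 CPM. Under BFD odour the pulldown was at 195, 268, 225, 202 and 244 CPM and the input at 189, 196, 188, 174 and 174 CPM. Under HFDlard odour the pulldown was at 274, 250, 237, 221 and 227 CPM and the input at 199, 196, 202, 218 and 204 CPM. In each odour group the lowest pulldown thus stood close to or above the highest input.

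The ratio of Rps6 changed by 0.12 ± 0.09 under NCD, 0.13 ± 0.10 under BFD and 0.08 ± 0.10 under HFDlard odour on the log2 scale, and none of these passed the threshold (edgeR adjusted p = 0.427, 0.393 and 0.655). Its input level under BFD odour was 0.26 ± 0.07 lower on the log2 scale than without odour (edgeR adjusted p = 0.00428), which also missed the threshold. Of the counts on Rps6 and its named pseudogenes 30.3% were on the pseudogenes, and 84.9% of its 31-base words were shared with other genes. With the pseudogene counts added, the ratio without odour was 0.08 (edgeR adjusted p = 0.206).

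The second comparison asked how the input, the tissue before the pulldown, differed between the odour groups and no odour. Under BFD odour the input held less of most ribosomal protein mRNAs. Of the 76 members 58 were lower and none was higher at an adjusted p under 0.001, beside 7.92% of all genes lower, 5.15% higher and 13.1% in either direction. At an adjusted p under 0.05 71 were lower, beside 19.8% of all genes. The median log2 difference was −0.69, from −1.42 to −0.01, against 0.011 over all genes, and it was negative in all 76. Both subunits took part, with 32 large-subunit and 26 small-subunit members lower. In 68 of the 76 all BFD inputs lay below all inputs without odour, which held for 13.7% of all genes.

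This result moved with the ribosomal RNA content. With the percentage of ribosomal RNA as a term in the edgeR fit, 0 members were lower or higher under any odour at an adjusted p under 0.001. At an unadjusted p under 0.05 2 were higher and 1 lower under BFD odour, 10 higher and 0 lower under NCD odour, and 39 higher and 0 lower under HFDlard odour. In that fit 2.86% of all genes were higher and 2.65% lower at this p under BFD odour, 4.61% higher under NCD and 5.24% higher under HFDlard odour. The median log2 difference of the members was then positive, 0.15 under BFD, 0.17 under NCD and 0.28 under HFDlard odour. Since that percentage separates the inputs without odour from all others, this fit could draw only on its variation within groups. In bulk tissue fewer cells of a type and less RNA per cell cannot be told apart either. Without BFD pool 3 the count of lower members was 33, without a share of all genes beside it.

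Rps21, one of the small proteins of the small subunit, had the largest difference. Its input level was 97.7, 122, 97.2, 142 and 77.7 CPM without odour and 38.7, 40.7, 27.8, 42.1 and 51.4 CPM under BFD odour. The groups were far apart, with a log2 difference of −1.42 ± 0.25 (edgeR adjusted p = 0.000268). Its pulldown level differed less, at 145 ± 27.2 CPM without odour and 110 ± 19 CPM under BFD odour (SD, n = 5 each).

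Of the stalk proteins, Rplp1 was at 222, 260, 233, 313 and 186 CPM in the input without odour and at 90.5, 93.9, 51.5, 96.9 and 127 CPM under BFD odour. Its difference of −1.40 ± 0.30 was the second largest, and it missed the threshold by its wide spread (edgeR adjusted p = 0.00152). Rplp2 likewise missed it (−1.11 ± 0.23, edgeR adjusted p = 0.00108), while Rplp0 passed with a smaller difference (−0.61 ± 0.10, edgeR adjusted p = 6.8e-05). The other large differences that passed were those of Rps28 (−1.11 ± 0.21), Rpl34 (−1.10), Rps29 (−1.05 ± 0.18) and Rps27l (at 0.498 of the level without odour), with edgeR adjusted p from 0.000191 to 0.000539. Rpl41, with −0.96 ± 0.17, followed (edgeR adjusted p = 0.000246).

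Rpl5, which carries the 5S ribosomal RNA into the large subunit and binds Mdm2, had the smallest p. Its input level was 193, 202, 189, 193 and 174 CPM without odour, 130, 130, 124, 138 and 143 CPM under BFD odour and 155, 138, 154, 151 and 156 CPM under HFDlard odour. The values of the 3 groups did not overlap except between BFD and HFDlard odours, where 1 HFDlard value of 138 CPM met the BFD range. The log2 difference was −0.52 ± 0.06 under BFD (edgeR adjusted p = 2.17e-06) and −0.33 ± 0.06 under HFDlard odour (edgeR adjusted p = 0.000607).

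Rpl4 differed by less than its spread. Its input level was 404, 406, 419, 406 and 409 CPM without odour and 393, 414, 412, 400 and 407 CPM under BFD odour, a log2 difference of −0.01 ± 0.05 (edgeR adjusted p = 0.872). Its transcript (chromosome 9, 64173375 to 64178666, build GRCm38) is, at 1538 bases, among the longest of the family. The 18 members that did not pass under BFD odour also held Rpl10, Rpl12, Rps12, Rpl15 and Rpl31, genes with large shares of their counts on other copies or with low counts, and Rps6.

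Among the paired copies, the input under BFD odour was lower for Rps27 (log2 −0.88 ± 0.17, edgeR adjusted p = 0.000425) as for Rps27l. It was also lower for Rpl39 (−0.88 ± 0.17, edgeR adjusted p = 0.000397), Rpl22 (−0.62 ± 0.10), Rpl3 (−0.40 ± 0.07) and Rps4x (−0.39 ± 0.07), the last 3 with edgeR adjusted p from 8.31e-05 to 0.000255. Their log2 differences thus ranged from −0.88 to −0.39.

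Under NCD and HFDlard odours the median differences were smaller. The difference was negative in 75 of 76 members under NCD odour, and in 70 under HFDlard odour, where it ran from −1.95 (Rps12) to 0.12. Under NCD odour 0 of 76 passed an adjusted p of 0.001 in the edgeR test, beside 0.416% of all genes lower and 0.968% in either direction. At an adjusted p under 0.05 60 were lower, beside 11.1% of all genes, and at an unadjusted p under 0.05 67, beside 17.7%. DESeq2 called 25 at 0.001, a count without the share of all genes that DESeq2 called. The median log2 difference was −0.46, and in 49 members all NCD inputs lay below all inputs without odour, against 4.75% of all genes. The smallest p belonged to Rps19 (−0.48) and Rps26 (−0.46), both with an edgeR adjusted p of 0.00261. Without no-odour pool 6 the count of lower members was 10, and without HFDlard pool 2, which enters through the shared spread, it was 8. Neither count has a share of all genes beside it.

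Under HFDlard odour 1 member, Rpl5, was lower at an adjusted p under 0.001, beside 0.317% of all genes lower and 0.935% in either direction. At an adjusted p under 0.05 44 were lower, beside 9.78% of all genes, and at an unadjusted p under 0.05 58, beside 16.9%. DESeq2 called 4 at 0.001, again without a share of all genes for that tool. The median log2 difference was −0.36. Only for Rpl3 and Rpl5 did all HFDlard inputs lie below all inputs without odour, against 3.59% of all genes.

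The spread within the HFDlard inputs was wide for short members. Rplp1 ran there over 183, 55.6, 124, 138 and 254 CPM, so that pool 6 reached the level without odour and pool 2 the lowest BFD values. All 3 odour groups were set against the same 5 no-odour pools, so their differences are not independent of each other.

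**Figure D3:**
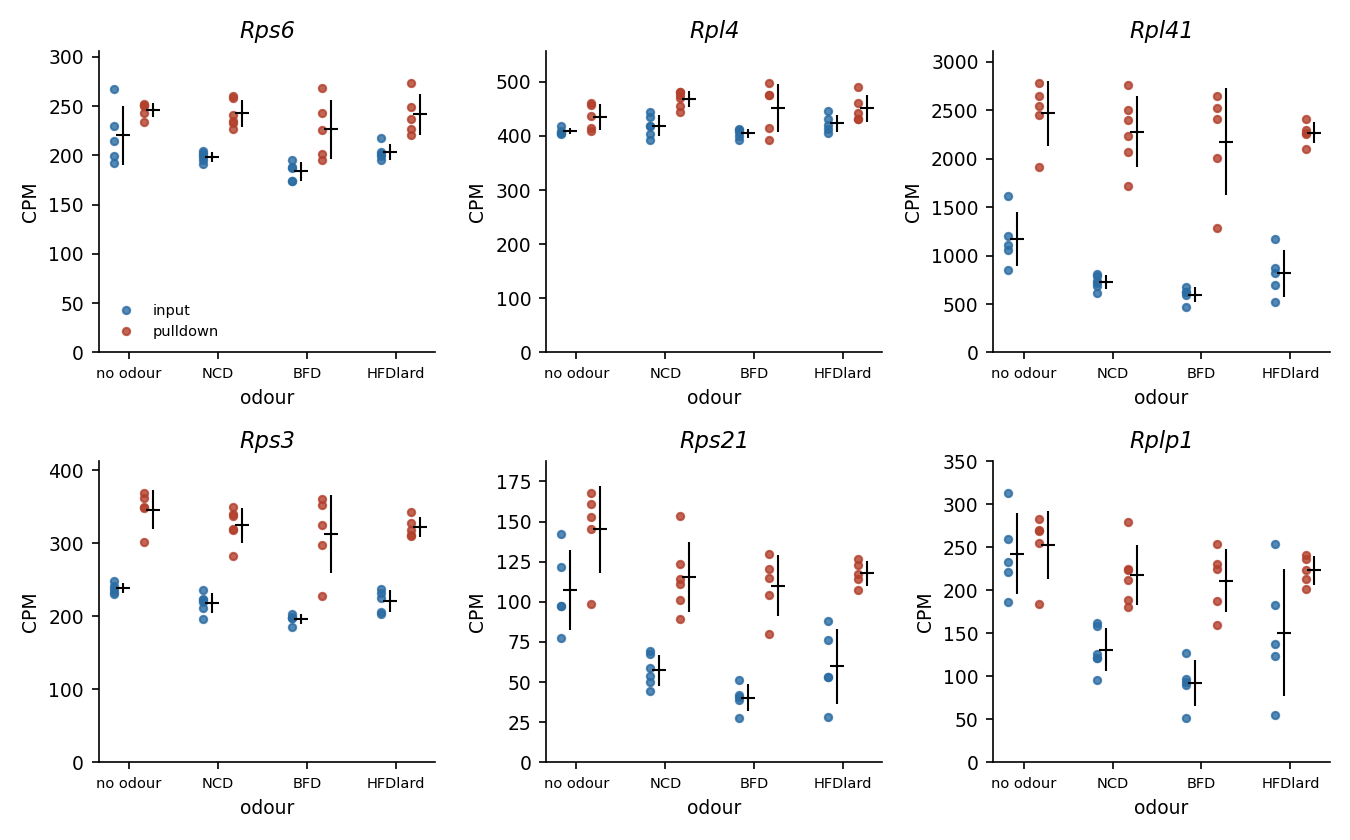
Level in CPM of 6 ribosomal protein genes in every library, by odour, input in blue and pulldown in red. Points are libraries and black marks the mean ± SD (n = 5, NCD n = 6). Rpl4 inputs lie between 392 and 446 in every group, and Rpl41 stands higher in the pulldown. Rps21 and Rplp1 inputs are lower under NCD and BFD odours, while those under HFDlard odour reach into the range without odour.

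In the pulldown the differences with odour were smaller. This fit on the 21 pulldown libraries was added after the data had been seen. No member passed an adjusted p of 0.001 under any odour in the edgeR test, beside 3.7% of all genes in either direction under NCD, 3.77% under BFD and 4.63% under HFDlard odour. At an unadjusted p under 0.05 8, 26 and 11 members were lower under NCD, BFD and HFDlard odours, beside 14.8%, 13.9% and 15.1% of all genes, and DESeq2 called 0, 1 and 1 at 0.001. At an adjusted p under 0.05 3, 9 and 3 were lower, beside 8.52%, 7.75% and 8.94% of all genes. The median log2 difference was −0.06, −0.14 and −0.08. Under BFD odour the smallest p belonged to Rplp0 (−0.22 ± 0.06, edgeR adjusted p = 0.00745), Rps9 (−0.29, edgeR adjusted p = 0.00784) and Rps2 (−0.24, edgeR adjusted p = 0.00939). Rps2 led also under HFDlard odour (−0.25, edgeR adjusted p = 0.00549).

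The third comparison, that of the study's design, asked whether the ratio of pulldown to input changed with each odour. The fitted ratios of most members were above those without odour under all 3 odours, and few of these changes passed the threshold. Under BFD odour 3 of 76 had a higher ratio and none a lower one, beside 2.47% of all genes higher, 1.32% lower and 3.78% in either direction. The 3 calls are near the share of all genes and do not single out the family. At an adjusted p under 0.05 59 were higher, beside 12% of all genes. The median change was 0.48 on the log2 scale and all 76 changes were positive. Since the ratio divides by the input, the lower inputs described above enter these changes directly.

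The 3 genes were Rps13, Rps27l and Rpl24. Rps13, a small-subunit protein at the subunit interface, had log2 ratios in the single pools of 0.16, 0.09, 0.08, −0.34 and 0.16 without odour and of 0.63, 1.09, 1.26, 0.63 and 0.73 under BFD odour. The pools did not overlap, and the change was 0.84 ± 0.14 (edgeR adjusted p = 0.000326). In the levels this was a difference of the input, from 173 ± 33.3 to 95.2 ± 13 CPM, with a pulldown of 175 ± 10 and 174 ± 28.8 CPM (SD, n = 5 each). Under HFDlard odour the pool ratios of Rps13 were 0.51, 1.02, 0.61, 0.38 and 0.00, and 1 of these lay within the range without odour.

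Rps27l changed by 1.06 ± 0.19 under BFD odour (edgeR adjusted p = 0.000538), by 0.73 ± 0.18 under NCD (edgeR adjusted p = 0.0112) and by 0.81 ± 0.19 under HFDlard odour (edgeR adjusted p = 0.00643). Its input fell from 42.2 ± 9.72 CPM without odour to 21 ± 2.77 CPM under BFD odour, and its pulldown was at 67.6 ± 7.05 and 72.6 ± 17.4 CPM. Rpl24, a large-subunit protein that bridges to the small subunit, changed by 0.73 ± 0.14 under BFD odour (edgeR adjusted p = 0.000822), with an input of 216 ± 31.8 CPM without odour and 121 ± 17.2 CPM under BFD odour. Rps2, lower in the pulldown without odour, had pool ratios with a mean of −0.53 without odour and of 0.15 under BFD odour, a change of 0.68 ± 0.15 that missed the threshold (edgeR adjusted p = 0.00211).

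BFD pool 1 stood apart among these pools. Its pulldown held 1286 CPM of Rpl41 where the other BFD pulldowns held 2005 to 2644, 346 CPM of Rps29 where they held 482 to 638, and 45.1 CPM of Rps27l where they held 68.3 to 91.4. Without BFD pool 1 the number of members with a higher ratio under BFD odour was 21, and without BFD pool 2 or 3 it was 0. It was 1 without BFD pool 4 or 5 or no-odour pool 2 or 3, 6 without HFDlard pool 1, 18 without HFDlard pool 2 and 12 without HFDlard pool 6. With each library's ribosomal RNA percentage as a term it was 0 in the edgeR test. At an unadjusted p under 0.05 24 were higher in that fit, beside 10.6% of all genes. With DESeq2 the number was 35, without the share of all genes that DESeq2 called. The number called thus moved with single pools and with the tool. The counts without single pools also have no share of all genes beside them, so they do not single out the members.

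Under NCD odour no member passed in the edgeR test, beside 0.359% of all genes higher and 0.524% in either direction, although 30 were higher at 0.05, beside 6.79% of all genes, and 58 at an unadjusted p under 0.05, beside 13.9%. DESeq2 called 1. The median change was 0.37 and all 76 changes were positive. In 52 members all NCD pool ratios lay above all pool ratios without odour, which held for 5.73% of all genes, and under BFD odour this was so in 36 members against 6.45%. The smallest p under NCD odour belonged to Rps13 (0.58 ± 0.14, edgeR adjusted p = 0.00844), Rpl32 (0.51 ± 0.12, edgeR adjusted p = 0.00872) and Rps27l.

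Under HFDlard odour no member passed in the edgeR test, beside 0.699% of all genes higher and 1.22% in either direction, with 8 higher at 0.05, beside 7.67% of all genes, and 36 at an unadjusted p under 0.05, beside 14.4%. DESeq2 called 1. The median change was 0.30 and 73 changes were positive. The smallest p belonged to Rps27l, and Rpl22 was also among the lowest (0.42, edgeR adjusted p = 0.0174). In 2 members, Rps27l among them, all HFDlard pool ratios lay above those without odour, against 5.04% of all genes.

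Between the odours themselves the ratios of the members were not told apart. No member passed between BFD and NCD, HFDlard and NCD or HFDlard and BFD odours in the edgeR test, beside 0.00945%, 0.0236% and 0.0378% of all genes in either direction. At an unadjusted p under 0.05 2, 2 and 14 members differed, beside 7.24%, 4.62% and 8% of all genes. The median differences were 0.12, −0.08 and −0.21 on the log2 scale. The smallest adjusted p was 0.471, for Rpl5 between HFDlard and BFD odours (log2 −0.25).

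**Figure D4:**
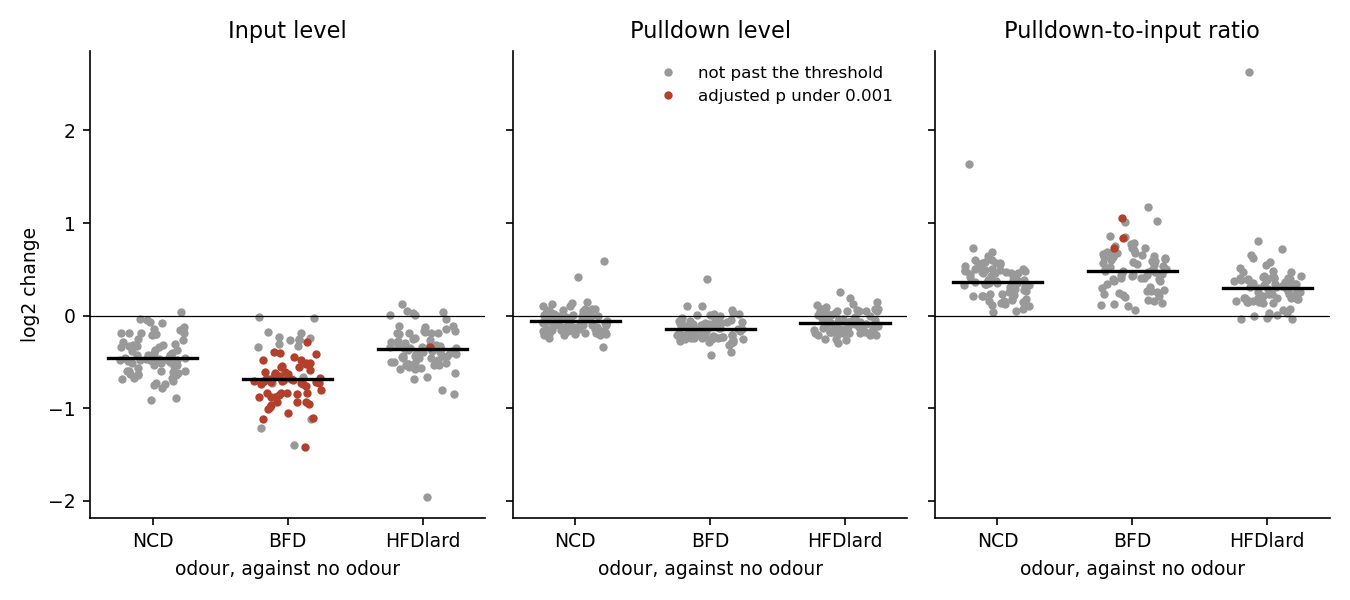
Log2 change against no odour of the input level (left), the pulldown level (middle) and the pulldown-to-input ratio (right) of the 76 tested ribosomal protein genes under each odour. Points are genes (the 3 farthest from 0, at −1.95, 1.64 and 2.63, are all Rps12), black bars their medians (input −0.46, −0.69 and −0.36 for NCD, BFD and HFDlard odours), and red points passed an adjusted p of 0.001.

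Members differed among themselves along the length of their transcripts, a property the naming rule does not use. Over the 76 members Spearman's rho with length was −0.42 for the ratio without odour, 0.53 for the input difference under BFD odour and −0.53 for the change of the ratio under BFD odour. It was 0.55 and 0.50 for the input differences under NCD and HFDlard odours. These are descriptions across genes of the same libraries, and the genes are not independent replicates. Over 16722 other protein-coding genes rho was −0.08 for the ratio without odour, 0.46 for the input and −0.39 for the ratio under BFD odour.

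Other short genes had medians of the same sign. Of the members, 26 had transcripts up to 600 bases and a median input difference under BFD odour of −0.77, against −0.35 in 600 other protein-coding genes of that length. In the class over 600 and up to 1000 bases the medians were −0.66 (37 members) and −0.27 (2140 others), and over 1000 and up to 1500 bases −0.50 (10 members) and −0.22 (2364 others). For the ratio without odour the medians in these classes were 0.29 and 0.34, 0.18 and 0.13, and 0.16 and 0.07, so there the members lay near other genes of their length. Up to 600 bases the median ratio change under BFD odour was 0.66 in members and 0.23 in others. Yet 3.85% of those members and 8.33% of the others were called higher. Over 600 and up to 1000 bases the medians were 0.43 and 0.21, and 5.41% and 8.04% were called higher. The length classes were added after the data had been seen, and the part of length in these results was not tested.

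**Figure D5:**
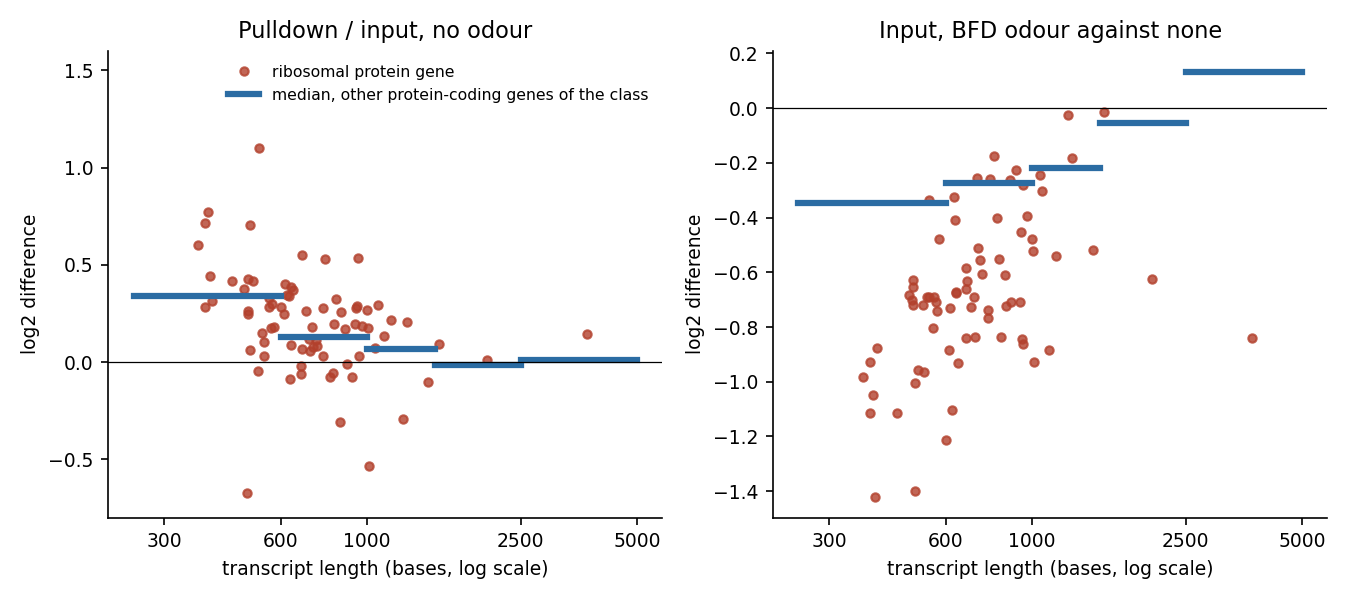
Log2 ratio of pulldown to input without odour (left) and log2 input difference under BFD odour (right) against transcript length in bases on a log axis. Red points are the 76 ribosomal protein genes and blue bars the medians of other protein-coding genes by length class. In the shortest class the medians are 0.29 and 0.34 on the left and −0.77 and −0.35 on the right.

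The 13 members with a pyrimidine tract at the annotated start had a median log2 ratio without odour of 0.28, and the 43 other matched and tested members one of 0.18. The medians of the input difference under BFD odour were −0.74 and −0.63 and those of the change of the ratio 0.57 and 0.45. The ranges of both sets overlapped in each measure.

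Related genes, from lists chosen by function, were measured in the same fits. Their counts stand beside the shares of all genes given above, which were 19.8% higher and 16% lower in the pulldown without odour, 7.92% lower and 5.15% higher in the input under BFD odour, and 2.47% with a higher and 1.32% with a lower ratio under BFD odour. The 7 companion ribosomal proteins outside the naming rule (such as Rpsa and Fau) had 6 lower in the input under BFD odour (median −0.58), none called without odour and 1 with a higher ratio under BFD odour. That gene was Rpl22l1, the companion of Rpl22, with 0.86 (edgeR adjusted p = 0.000332). Of 78 mitochondrial ribosomal protein genes, whose products build the separate ribosome of mitochondria, 42 were lower in the input under BFD odour (median −0.51), 17 had a higher ratio under BFD odour (median 0.54), and without odour 19 were higher and 6 lower in the pulldown (median 0.13). The first 2 counts are 53.8% and 21.8% of the list, above the shares of all genes, and the last 2 are 24.4% and 7.69%, near and below them.

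A further list held 17 other genes described as having TOP mRNAs, mainly translation factors, whose starts were not examined one by one. Of these, 9 were lower and none was higher in the pulldown without odour (median −0.22). Among the 9 were Eif3e (−0.45), a subunit of the initiation factor eIF3, and Eef1a1 (−0.32), the main elongation factor. The 9 are 52.9% of the list. Under BFD odour 8 were lower in the input (47.1%, median −0.27) and 1, Naca, had a higher ratio (0.50). Of 26 ribosome biogenesis genes 6 (23.1%) were higher in the pulldown without odour, near the share of all genes, with Nhp2 at 0.97 and Tcof1 at 0.88. Under BFD odour 3 (11.5%) were lower and 1 (3.85%) was higher in the input, which is also near those shares. The higher one was Ncl (nucleolin, 0.60), whose ratio fell by 0.75.

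The remaining 26 initiation and termination factors had 8 higher (30.8%) and 4 lower (15.4%) in the pulldown without odour, beside 19.8% and 16% of all genes, with Eif4g2 at 1.02 and the cap-binding Eif4e at −0.68. Of 17 S6 kinases and regulators of TOP mRNAs 6 were higher (35.3%) and 4 lower (23.5%) there. Larp1, the protein that binds TOP mRNAs, was higher in the pulldown (1.20), and Pdcd4, a translation inhibitor degraded after phosphorylation by S6 kinase, was lower (−0.83). Under BFD odour Larp1 was higher in the input (0.57) and the ratio of Pdcd4 rose by 0.52.

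The cells in the libraries also differed between pulldown and input. Without odour markers of supporting cells were lower in the pulldown (6 of 6, median log2 −1.75), and their summed level was 2843 to 3654 CPM there against 8166 to 11788 CPM in the input. Markers of erythroid cells were higher (6 of 6, median 2.07, 1567 to 2268 against 363 to 722 CPM), as were those of macrophages (5 of 5, median 1.07, 91.8 to 133 against 44.2 to 62.6 CPM). Markers of mature sensory neurons (6 of 9 higher, median 0.49) and of immature neurons (6 of 7 higher, median 0.53) were also higher. No marker of these lists was at 0 in a group's median. In the input under BFD odour 2 macrophage markers were lower (median −0.64), with a summed level of 32.4 to 38.7 CPM, while erythroid markers were at 359 to 476 CPM. Of the mature neuron markers 2 of 9 were lower there (down to −1.17) and 1 was higher. Of the immature neuron markers 2 of 7 were lower (down to −0.80), and of the supporting cell markers 1 of 6. The summed immature neuron level, however, was higher, at 1608 to 1725 CPM against 1483 to 1601 CPM without odour. Sums were also higher for globose basal and dividing cells (148 to 163 against 102 to 139 CPM) and ciliated cells (238 to 274.5 against 186 to 227 CPM). Sums of mature neurons and of supporting cells overlapped between these inputs. The part of these cells in the levels of ribosomal protein mRNAs was not tested.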

How the data were processed

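RNA was sequenced from 42 libraries, a pulldown and an input from each of 21 pools of 4 epithelia. The libraries were made with kits for low RNA input, and paired reads were aligned and quantified by the authors with the nf-core rnaseq workflow and Salmon on the mouse genome GRCm38. The deposited values are estimated counts per gene that the authors did not normalise. Of the values, 30.9% were not whole numbers, so they were rounded before testing. The 556 rows without a gene name held 0.525% of counts and were not removed, so any that passed the filter count among all genes. The kits do not mark strand, and how reads shared with near-identical copies were divided was not tested.

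Symbols and gene types came from the annotation GENCODE M21. The members and all gene lists were chosen with earlier results of these data known. Genes were kept by filterByExpr with a minimum count of 10, and libraries were scaled by TMM. The main model was edgeR 4.0.16 (R 4.3.3, limma 3.58.1), a robust quasi-likelihood fit of the 42 libraries with a term for each pool and a pulldown term for each odour. Inputs and pulldowns were also fitted alone, 21 libraries each, by odour. The biological coefficient of variation was 12.0% in the ratio fit. Two-sided p-values were adjusted by Benjamini-Hochberg over 21168 genes, and a call needed an adjusted p under 0.001, the threshold the study used. The scripts were checked on simulated counts.

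A pulldown and input of a pool come from the same animals, which is why the pool is a term. Their deviations from the group means had a median correlation of 0.0142, against −0.00416 for inputs of other pools. Replicate numbers across odours share only a number (correlations of same-numbered ratios −0.214 to 0.112 over 27 pairs). Pools are separate samples in the labels, and p-values measure the spread between pools.

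Genes were named by a rule: Rps6, the stalk genes, paired copies, the 5 called genes with the largest change in each direction, the 3 with the smallest p, the 5 highest and lowest levels per length and genes failing the filter. Other genes (Rpl4, the genes whose starts are shown and the remaining called members) were named after their values were seen. Alternatives changed the scaling, filter, tool (DESeq2 1.42.0), samples, threshold, covariates, pseudogene counts and pools. Shares of all genes are from the main edgeR fits and, at an unadjusted p, from the fits with ribosomal RNA percentage. Counts from DESeq2, from other settings and without single pools have no background beside them and do not single out the members. Results of a few genes that the rule would name are not reported here.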

Additional observations from a re-analysis of the deposited data

Results flagged for a closer look

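In 88 groups of 4 to 10 libraries checked, over 10 genes and the summed share of the family, 4 held a library far from the others by Dixon's test at the 95% level, about the number that chance gives at 1 in 20. The input of no-odour pool 4 had the highest share of counts on ribosomal protein genes, 1.80%, where the median of the other inputs without odour was 1.49%. The pulldown of no-odour pool 6 had the lowest levels of the stalk genes Rplp1, with 184 CPM against a median of 270 CPM in the others, and Rplp2, with 185 CPM against 240 CPM. The input of no-odour pool 3 had the highest level of Rpl4, 419 CPM against a median of 406 CPM.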

How the results depend on the processing

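The 35 results were counts of members, values of Rps6 and shares of counts, and these do not show the sign of single called members. With ribosomal RNA percentage as a term the median input difference of the members turned positive (0.15 under BFD odour). Some members called lower in that input therefore changed sign. Of the alternative values, 816 kept their side of the threshold or stayed within the limits set for a change, 70 moved and 1 became a call.

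For members higher in the pulldown without odour (10), the count was 38 at an adjusted p under 0.05 and 5 with ribosomal RNA percentage as a term, and 6 to 15 without single pools. For those lower (2), it was 1 without a pool term, 1 with only the groups compared and 0 with ribosomal RNA, and 0 to 2 without single pools. For a higher ratio under NCD odour (0), it was 30 at 0.05, 7 with only the groups compared and 1 with DESeq2, run on both libraries or on pulldown divided by input. Under BFD odour (3) it was 59 at 0.05, 5 with size factors, 7 with ribosomal rows left out of scaling, 12 without the filter, 5 with pseudogene counts added, 0 with ribosomal RNA or only the groups compared and 35 with either form of DESeq2, and 0 to 21 without single pools. Under HFDlard odour (0) it was 8 at 0.05 and 1 with either form of DESeq2.

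In the input, the count of lower members under NCD odour (0) was 60 at 0.05, 25 with DESeq2 and 0 to 10 without single pools. Under BFD odour (58) it was 0 with ribosomal RNA and 33 to 63 without single pools. Under HFDlard odour (1) it was 44 at 0.05, 4 with DESeq2, 0 with ribosomal RNA or only the groups compared and 0 to 3 without single pools. In the pulldown it was 3, 9 and 3 at 0.05 under NCD, BFD and HFDlard odours, and 1 with DESeq2 under BFD and under HFDlard odour.

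With replicate number as a block, 1 member was higher and 0 were lower in the pulldown without odour, 1 had a higher ratio under BFD odour, and 0 were lower in the input under HFDlard odour. The number of members lower in the BFD input under the block was 39. The other counts with the block stayed within 1.5 times.

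Rps6 passed 0.05 without odour with a log2 ratio of 0.17. Its ratio without odour ran from 0.13 to 0.22 without single pools, and its changes from 0.06 to 0.16 (NCD), 0.08 to 0.19 (BFD) and 0.03 to 0.13 (HFDlard). Of counts other than ribosomal RNA, the members' share was 2.45%, 2.29%, 2.16% and 2.27% in no-odour, NCD, BFD and HFDlard pulldowns and 2.08%, 1.61%, 1.42% and 1.70% in the inputs in the same order. Without single pools the shares of all counts moved from 1.96% to 2.00%, 1.98% to 2.06%, 1.85% to 2.00% and 1.99% to 2.07% in the pulldowns and from 1.50% to 1.58%, 1.37% to 1.40%, 1.25% to 1.30% and 1.40% to 1.52% in the inputs, in the order no odour, NCD, BFD, HFDlard. The cause of these changes was not tested.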

Other observations

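The kinases that phosphorylate ribosomal protein S6, and their relatives, are encoded by 10 genes named Rps6k. Without odour 4 of these mRNAs were higher and 1 was lower in the pulldown by edgeR's quasi-likelihood test, beside 19.8% and 16% of all genes. Rps6kc1 was higher by 0.81 ± 0.07 on the log2 scale (adjusted p = 9.26e-10) and Rps6kb2, one of the S6 kinases proper, by 0.57 ± 0.08 (adjusted p = 1.04e-06). Rps6ka2 and Rps6ka4 were also higher (0.49 ± 0.08 and 0.45 ± 0.11), and Rps6ka3, a kinase of the RSK family, was lower (−0.46 ± 0.08, adjusted p = 1.78e-05). Rps6kb1, the main S6 kinase, stood at −0.12 ± 0.07 and did not pass (adjusted p = 0.116). In the input under BFD odour Rps6ka2 (0.38 ± 0.08) and Rps6kc1 (0.49 ± 0.10) were higher, beside 5.15% of all genes, and none of the 10 had a called change of the ratio under any odour.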
